A study of Mus musculus with 14 samples.

Results

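The immediate early genes described here were 10 genes taken by symbol from the whole spinal cord (WSC) RNA-seq gene tables, *Fos*, *Fosb*, *Jun*, *Junb*, *Egr1*, *Egr2*, *Arc*, *Nr4a1*, *Ier2* and *Dusp1*, out of 19215 genes listed. All 10 were present in both tables, each matched by 1 Entrez identifier. Immediate early genes are transcribed within minutes of a stimulus from factors that already sit in the cell, without new protein synthesis, and their mRNAs are short-lived. In neurons they are widely read as marks of recent synaptic activity. FOS, FOSB, JUN and JUNB are subunits of the dimeric AP-1 transcription factor, EGR1 and EGR2 are zinc finger transcription factors, NR4A1 is an orphan nuclear receptor, and IER2 is a small nuclear protein. ARC acts at the synapse, where it promotes removal of AMPA receptors, and DUSP1 is a phosphatase that switches off MAP kinases.

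The series held 14 libraries from mouse spinal cord. RNA-seq was made from 1 male and 1 female mouse of 12 weeks, B6/SJL animals carrying Tg(SOD1)2Gur/J, a transgene for wild-type human SOD1, so both RNA-seq libraries came from transgenic mice. CLIP, in which UV light links a protein to RNA in tissue and the bound RNA fragments are sequenced, was made for NOVA, a neuronal protein that binds YCAY (Y is C or T) and regulates splicing and polyadenylation. All CLIP mice were C57BL/6 animals of 3 months. WSC CLIP used an anti-NOVA serum on 4 wild-type cords, 1 mouse each. MN CLIP used anti-GFP antibodies on cords pooled from several mice hemizygous for Chat:GFP-Nova, a transgene whose *Chat* promoter drives GFP-tagged NOVA2 in motoneurons (MNs), with 4 libraries from line 6 and 4 from line 17. MN and WSC CLIP therefore differed in antibody, in NOVA protein and in pooling as well as in cell type, and these cannot be told apart.

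The RNA-seq libraries held 72006019 and 65625173 reads on genes. The CLIP libraries held 65961 to 871804 reads for MNs and 2213104 to 6095995 for WSC. Exons took 34.6% to 47.3% of the gene reads in MN CLIP and 60.9% to 66.1% in WSC CLIP. Of 5 motoneuron markers, 3 had enough CLIP reads and all 3 were higher in MN CLIP, by 2.90 ± 0.13 (log2, SE) for *Chat* and 2.03 ± 0.14 for *Slc5a7*. In RNA-seq the oligodendrocyte, neuron and astrocyte lists were abundant, with summed levels of 7577, 3671 and 971 RPKM in the male library and 8212, 4037 and 976 RPKM in the female library, as is usual for spinal cord. The red blood cell genes differed between the libraries, summed at 456 RPKM in the male and 179 RPKM in the female library.

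The RNA level of each gene is given first, in RPKM, which scales a gene's reads by its exon length and by the reads of the library, so that genes can be compared per length. *Jun* had the highest level, with 16.9 RPKM from 3889 reads in the male library and 19.0 RPKM from 3974 reads in the female library. *Egr1* had 10.9 RPKM from 2402 reads and 9.003 RPKM from 1815 reads. *Arc* had 10.1 RPKM from 2232 reads and 9.02 RPKM from 1809 reads. These 3 genes were above 66.4% of all genes in both libraries. *Fos* had 8.24 RPKM from 1244 reads and 8.03 RPKM from 1105 reads, close to *Arc* in both. *Dusp1* had 5.83 RPKM from 966 reads and 6.27 RPKM from 947 reads. *Junb*, the AP-1 subunit that can oppose JUN, had 4.51 RPKM from 612 reads and 4.20 RPKM from 519 reads. These values placed *Fos*, *Dusp1* and *Junb* in the middle of the distribution, between the 52.8th and 64.5th percentile of all genes.

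The other members were lower. *Nr4a1* had 3.05 RPKM from 541 reads in the male and 3.34 RPKM from 539 reads in the female library. *Ier2* had 1.15 RPKM from 272 reads and 0.947 RPKM from 205 reads. *Fosb* had 0.614 RPKM from 167 reads and 0.569 RPKM from 141 reads. *Egr2*, which is best known as the driver of myelination in Schwann cells, was nearly silent, with 0.0497 RPKM from 11 reads and 0.0744 RPKM from 15 reads. The exact 95% Poisson intervals of *Egr2* were 0.0248 to 0.0890 RPKM and 0.0417 to 0.123 RPKM, and they cover counting error only. The level of *Ier2* rests on the exon length: the table divides by 3298 nt, whereas the GENCODE transcript has 1522 nt, which would give a mean of 2.27 RPKM in place of 1.05 RPKM and leave its rank unchanged.

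**Figure D1:**
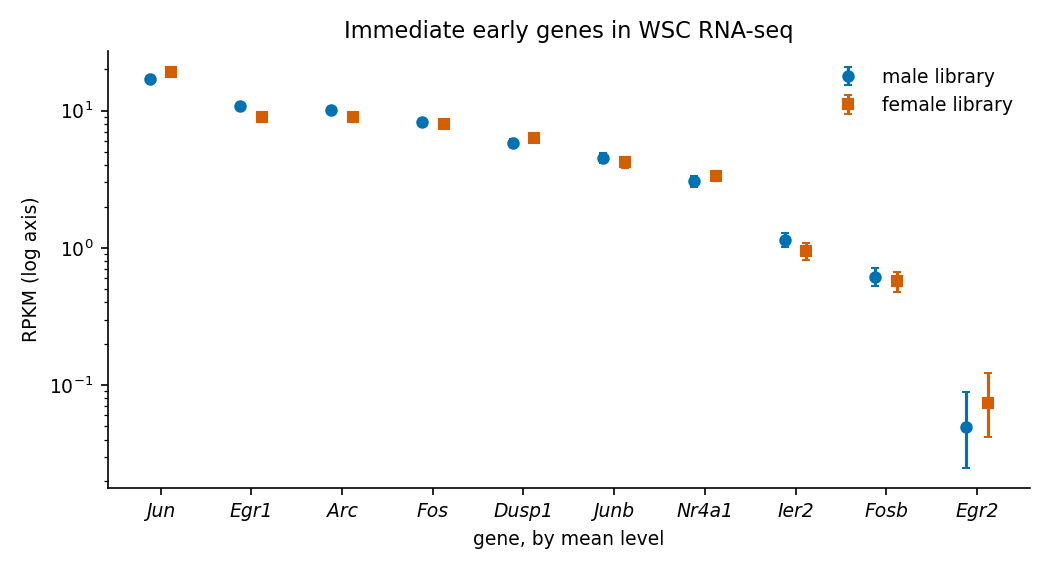
Level of each immediate early gene in the male (circles) and female (squares) WSC RNA-seq library, in RPKM on a log axis, ordered by the mean; bars are exact 95% Poisson intervals and cover counting error only. Levels fall from 16.9 and 19.0 RPKM for *Jun* to 0.0497 and 0.0744 RPKM for *Egr2*, and the paired points of each gene lie close together.

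The order of levels was nearly the same in both animals. From *Jun* down to *Egr2*, the values of neighbouring genes overlapped between libraries for only 1 of the 9 neighbouring pairs, *Egr1* and *Arc*, whose order was turned between the animals (10.9 and 10.1 RPKM in the male, 9.003 and 9.02 RPKM in the female). The AP-1 members spanned a wide range within themselves, from *Jun* at a mean of 18.0 RPKM through *Fos* at 8.13 and *Junb* at 4.35 to *Fosb* at 0.592 RPKM. The pair of EGR factors differed more, with 9.93 RPKM for *Egr1* and 0.0621 RPKM for *Egr2*.

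The male and female library were then compared. With 1 animal each there is no test, and sex and animal cannot be told apart. None of the 10 genes reached 2-fold on the log2(RPKM + 0.1) scale, beside 2.42% of the 14539 genes with at least 20 reads (1.44% higher in the male and 0.984% higher in the female library). The members' log2 ratios of male over female ran from -0.22 for *Egr2* to 0.27 for *Egr1*, with 6 above and 4 below 0. Their median was 0.07, and that of all genes 0.01. *Egr1* was 1.21-fold higher in the male library, with a counting interval of 1.13 to 1.28. *Ier2* was also 1.21-fold higher, with a wider interval of 1.01 to 1.46, and *Arc* 1.12-fold higher (1.06 to 1.20). *Jun* was 0.892 times its female level in the male (0.853 to 0.932). The intervals of *Fos*, *Fosb*, *Junb*, *Nr4a1*, *Dusp1* and *Egr2* included 1. The ratio of *Egr1* was higher than that of 83.4% of all genes. The red blood cell list was higher in the male library as well, and so were all 5 endothelial markers, with log2 ratios of 0.27 to 0.58 and summed levels of 19.6 RPKM in the male and 13.9 RPKM in the female library. The part of these cells in the ratios of *Egr1*, *Arc* and *Ier2* was not tested. In cord, which mixes many cell types, fewer expressing cells and less RNA per cell cannot be told apart.

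Other genes of the same programme gave a similar picture in RNA-seq. Of 42 further immediate early genes listed, 39 were in the tables and 1 passed 2-fold, *Npas4*, a transcription factor induced by neuronal calcium entry. It had 103 reads in the male and 37 in the female library (0.519 and 0.204 RPKM), or 2.54-fold on the RPKM themselves. The 4 with the most reads were *Rhob*, a small GTPase (142 and 158 RPKM), *Jund*, the constitutive JUN family member (22.3 and 23.0 RPKM), *Sgk1*, a glucocorticoid-induced kinase (22.6 and 42.7 RPKM), and *Rgs2*, an inhibitor of G protein signalling (20.4 and 21.4 RPKM). All 4 were above every member in both libraries, and *Sgk1* had the lowest log2 ratio of the list, -0.91. None of 30 upstream kinases and transcription factors passed 2-fold, with log2 ratios of -0.45 to 0.44, and none of 10 AP-1 dimer partners with enough reads or of 12 late activity-regulated genes did. Of 13 stress response genes 1 passed, *Hspa1b*, an inducible heat shock protein, with 258 reads in the male and 96 in the female library. The genes whose ratio lay nearest the members' median, among 10219 other genes with at least 500 reads in each library, were *Mllt10*, *Sirpa*, *Pcyox1*, *Ncald* and *Psmb10*, each within 0.000121 (log2) of it over 2 libraries. At the ends of the same ranking, off the sex chromosomes, stood *Hba-a2*, *Wdfy1*, *Hbb-b2*, *Hbb-b1* and *Ddc*, higher in the male by 1.08 to 1.38 (log2), and *Uts2*, *H2-D1*, *Capza1*, *Ly86* and *Hddc3*, with log2 ratios of -1.05 or lower.

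Splicing could not be read for these genes from the deposited exon tables. The tables listed 13189 cassette exons in 6874 genes, and 0 of them belonged to a member in either library. In GENCODE, *Jun*, *Junb* and *Ier2* have 1 exon, *Egr1* and *Egr2* have 2, *Arc* 3, *Fos*, *Fosb* and *Dusp1* 4, and *Nr4a1* 7.

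The next question was which of these RNAs NOVA CLIP recovered. CLIP reads were counted per gene on its own strand. In WSC CLIP, *Egr1* had the most, with 223, 396, 313 and 76 reads in replicates 1 to 4. *Fos* had 58, 92, 99 and 39 reads. *Arc* had 57, 94, 63 and 17. These were followed by *Jun* with 26, 49, 48 and 21 reads and *Dusp1* with 15, 41, 17 and 10. *Nr4a1* had 5, 7, 6 and 2 reads and *Fosb* 5, 5, 5 and 2, so 7 members had reads in every WSC library. *Junb* had 3 reads over the 4 libraries, and *Egr2* and *Ier2* had 1 each, of 14291682 reads in genes. On the opposite strand, *Dusp1* had 2 reads, *Arc* 1 and the others 0.

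Reads on a gene follow its abundance, so exonic WSC CLIP reads were set beside the RNA-seq reads of the same gene, in other mice of another strain. The CLIP counts left out reads in overlapping genes, while the RNA-seq counts followed the authors' gene models. For *Ier2* these models had 1522 and 3298 nt. Some genes with many RNA-seq reads had 0 CLIP reads, and the median and percentiles below include them. *Egr1* gave 239 CLIP reads per 1000 RNA-seq reads (exact Poisson interval 225 to 254), above 95.6% of the 11557 genes with at least 200 RNA-seq reads. *Fos* gave 123 (109 to 138), above 87.2%. Both lay well over the median of all genes, 26.1 reads. *Arc* with 57.2, *Fosb* with 51.9 and *Dusp1* with 42.9 CLIP reads per 1000 were between the 62.7th and 69.6th percentile. *Jun*, the most abundant member in RNA-seq, gave only 18.3 (15.4 to 21.6), above 42.2% of genes, and *Nr4a1* gave 18.5 (11.3 to 28.6). *Junb* gave 2.65 (0.547 to 7.75) and *Ier2* 2.10 (0.0531 to 11.7), at the 11.5th and 9.54th percentile. The upper bound of *Junb* was below the lower bound of *Jun*, whose upper bound was in turn below the lower bound of *Fos*. *Egr2* had too few RNA-seq reads for this comparison.

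**Figure D2:**
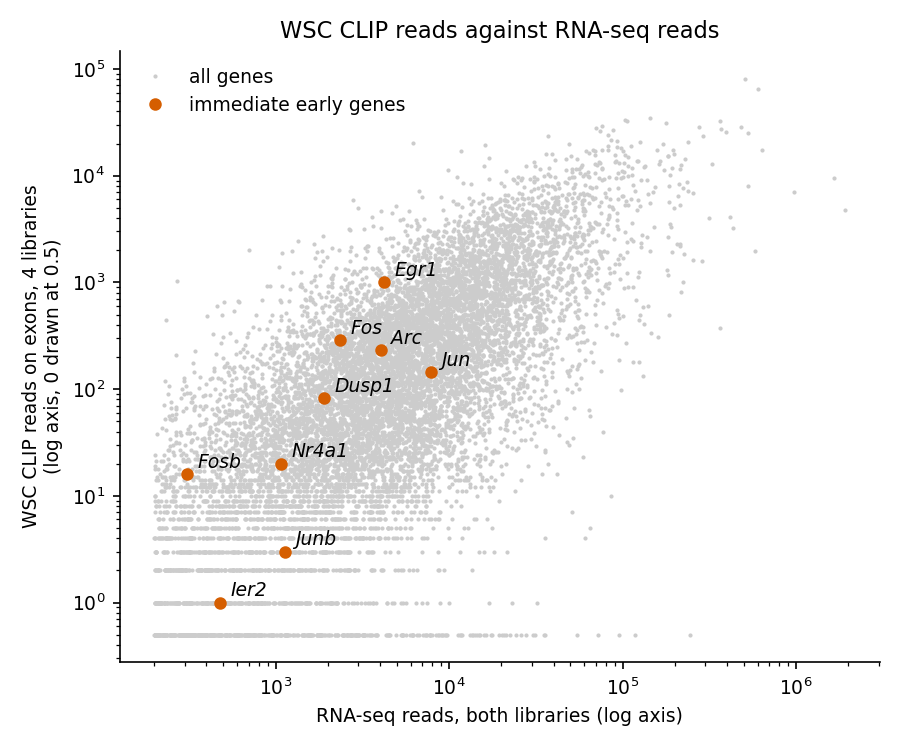
WSC CLIP reads on exons, summed over 4 libraries, against RNA-seq reads, summed over both libraries, for 11557 genes (grey) and the 9 immediate early genes with at least 200 RNA-seq reads (orange); both axes are logarithmic and genes without CLIP reads are drawn at 0.5. *Egr1* and *Fos* lie high in the cloud, with 1008 and 288 CLIP reads, while *Junb* and *Ier2* lie near its lower edge, with 3 and 1.

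The density of YCAY in the spliced transcript did not follow the same order. It was searched as TCAT or TCAC, and likewise as CCAT or CCAC, on the sense strand only, overlaps counted. *Dusp1* had 22.1 per kb, *Arc* 21.3, *Egr1* 21.0, *Egr2* 19.6, *Nr4a1* 17.4, *Fos* 16.1, *Fosb* 14.4, *Junb* 13.8, *Ier2* 11.8 and *Jun* 9.41 per kb, beside a median of 17.2 over 22369 protein-coding genes. *Fos* was below that median and *Egr2* above it. *Jun*, *Ier2* and *Junb*, which had low CLIP per RNA, were above only 2.74%, 8.52% and 19.3% of genes in density. *Nr4a1*, with CLIP per RNA close to that of *Jun*, was above 52.3%.

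The reads of the 5 most covered members fell almost wholly in exons, and mostly in the 3′ UTR. Of the WSC reads on exons, 98.3% lay in the 3′ UTR for *Arc*, 96.5% for *Fos*, 81.7% for *Dusp1* and 79.2% for *Jun*, with 74.2% over all protein-coding genes. *Egr1* differed, with 54.6% (exact binomial interval 51.4% to 57.7%) in the 3′ UTR and 44.6% (41.5% to 47.8%) in the coding sequence, where all genes had 24.9%. This coding share was 51.1%, 42.4%, 42.2% and 47.4% in the 4 WSC libraries, so every library was above it. *Nr4a1* had 15 of its 20 reads in the coding sequence. These are shares of reads, not of independent molecules, and the intervals cover counting error only.

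Within the 3′ UTR the reads piled up in narrow places. A site was the midpoint of highest pooled WSC coverage. The 30-nt windows below are shown because most WSC CLIP reads of *Fos*, and 27.1% to 37.3% of those of *Jun*, *Arc* and *Dusp1*, passed over the middle of 1 such window. They are mm9 sequence, 5′ to 3′ on the gene's strand, with YCAY in capitals.
Fos 3′ UTR, chr12:86817970-86817999, plus strand: cattgTCATgttactgaTCATgcattgtcg
Jun 3′ UTR, chr4:94716624-94716653, minus strand: ggacctaacattcgatcTCATtcagtatta
Arc 3′ UTR, chr15:74501463-74501492, minus strand: cCCACtgacctggcctgacTCACaactgcc
Dusp1 3′ UTR, chr17:26642862-26642891, minus strand: gacacacCCACcagtattaaCCATtcccga
The *Fos* site lay 580 nt past the last coding base and 238 nt before the gene's end, and 40, 52, 50 and 23 reads covered it in the WSC libraries, or 165 of 288 (57.3%). The *Arc* site lay close behind the coding sequence, 137 nt past it, with 79 of 231 reads. *Arc* had another site near its 3′ end, 97 nt before the end of the gene, with 38 reads, and a lower one 297 nt past the coding sequence with 30 reads. The *Jun* site lay 322 nt past the coding sequence with 39 of 144 reads, and the *Dusp1* site 351 nt past it with 31 of 83. *Egr1* had its site 287 nt past the coding sequence, with 59, 122, 97 and 21 reads (299 of 1008), and another inside the coding sequence with 39, 50, 41 and 12 reads (142 of 1008). Each of these 3′ UTR sites was covered in all 4 WSC libraries.

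The windows of *Fos*, *Arc* and *Dusp1* held 2 YCAY each, that of *Jun* 1 and that of *Egr1* 3. Over the highest site of each of 9739 protein-coding genes, 89.5% of windows held at least 1 and 49.7% at least 2. Of all 30-nt windows in the transcripts of these genes, 36.2% held at least 1 and 8.05% at least 2. Of the members' 5 sites, 5 held at least 1 and 4 held at least 2. Of the 6 lower sites, 3 held YCAY, with 1 in the *Egr1* coding site, 1 in the *Arc* site near the 3′ end and 2 in the other *Arc* site. The lower *Jun* sites, 596 and 786 nt past the coding sequence, and the lower *Dusp1* site 466 nt past it held 0. The highest site took 27.1% of the WSC reads of *Jun* and 57.3% of those of *Fos*.

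**Figure D3:**
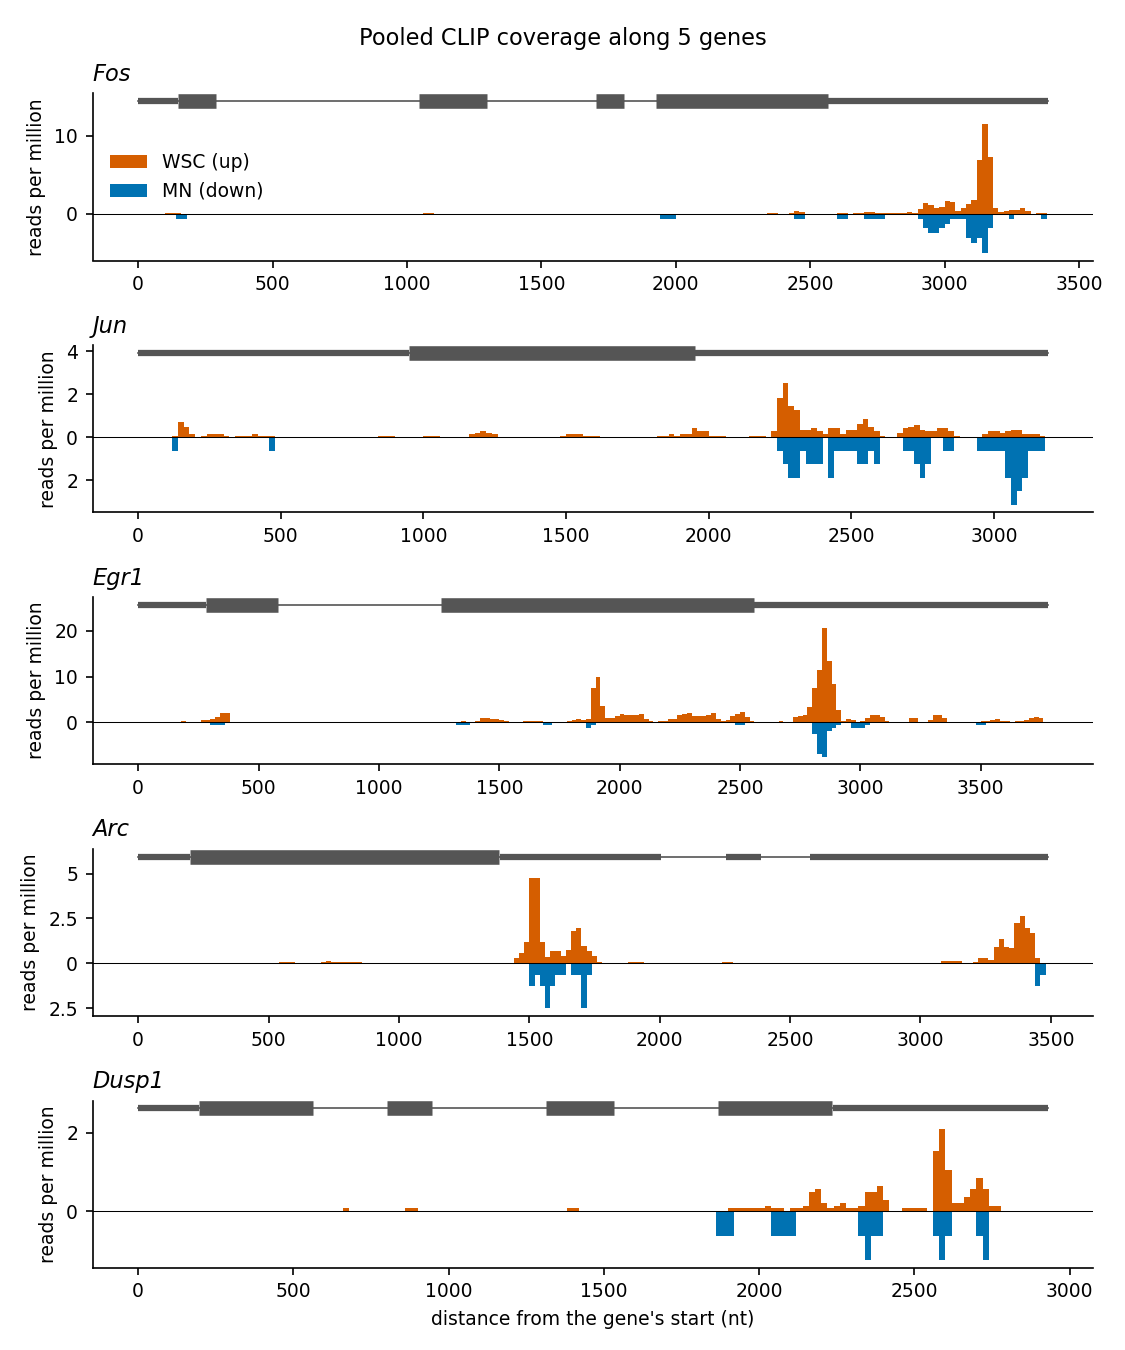
Pooled CLIP coverage along *Fos*, *Jun*, *Egr1*, *Arc* and *Dusp1*, as reads over each position in RPM (reads per 1000000 reads in genes), WSC upward (orange) and MN downward (blue), against the distance in nt from the gene's start; thick grey bars are coding sequence, thin bars UTRs and lines introns. The tallest WSC peak of each gene lies in the 3′ UTR, and *Egr1* has a further peak in its coding sequence with 142 WSC and 0 MN reads at its centre.

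MN CLIP was then compared with WSC CLIP. A fit across all genes called 31.3% of 12030 genes, 10.5% higher and 20.7% lower in MNs, at an adjusted p of 0.01 (edgeR's quasi-likelihood test, Benjamini-Hochberg adjustment), with a median log2 fold change over all genes of -0.21. The DESeq2 Wald test called 1456 higher and 1842 lower, where edgeR called 1269 and 2492. Of the members, 6 had at least 20 reads in all and a read in at least 4 libraries, and entered this test. The MN and WSC libraries overlapped in CPM for all 6, beside 3.13% of genes with every MN library over every WSC library and 16.4% with every MN library under. *Fosb*, *Junb*, *Egr2* and *Ier2* had too few reads. *Junb*, *Egr2* and *Ier2* had 0 of 1592223 MN reads in genes, which allows up to 1.91 CPM (counts per 1000000 reads in genes, after TMM scaling), above their mean WSC levels of 0.205, 0.152 and 0.0524 CPM, so a difference was not detectable at this depth.

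*Egr1* was the 1 member that passed, and it fell. It had 4, 1, 0 and 2 reads in line 6 replicates 1 to 4, 17, 1, 2 and 5 reads in line 17 and 223, 396, 313 and 76 reads in WSC. In CPM, 6 of the 8 MN libraries lay between 0 and 26.2, line 6 replicate 1 at 48.6 and line 17 replicate 1 at 294, and the WSC libraries between 46.1 and 85.4. The groups overlapped through these last MN libraries, which were among the shallowest. Pooled over libraries, *Egr1* made up 20.1 RPM (reads per 1000000 reads in genes, with no TMM scaling) in MNs and 70.5 RPM in WSC. The log2 fold change of MN over WSC was -1.79 ± 0.33 (SE; 8 MN and 4 WSC libraries; edgeR adjusted p = 4.21e-06), or 3.46-fold lower. Without line 17 replicate 1 the log2 fold change was -2.84 (edgeR adjusted p = 5.64e-15). With the DESeq2 Wald test on all libraries it was -0.35 ± 1.13 (adjusted p = 0.825), so the call was lost.

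*Fos* did not pass. It had 1, 2, 10 and 3 reads in line 6, 0, 1, 1 and 9 in line 17 and 58, 92, 99 and 39 in WSC. The MN libraries ran from 0 to 30.7 CPM with a median of 13.4 and the WSC libraries from 19.3 to 23.7, so the WSC libraries lay inside the MN range. Its log2 fold change was -0.32 ± 0.31 (edgeR adjusted p = 0.426). *Arc* had 2, 1, 0 and 1 reads in line 6, 4, 1, 1 and 4 in line 17 and 57, 94, 63 and 17 in WSC. It ran from 0 to 69.3 CPM in MNs with a median of 10.7 and from 10.3 to 21.8 in WSC, and again line 17 replicate 1 was highest. Its log2 fold change was -0.91 ± 0.42 (edgeR adjusted p = 0.0762). The plain means of *Arc*, 17.5 CPM in MNs and 16.5 in WSC, had the opposite order, since they weigh each library alike while the fit weighs them by depth.

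*Jun* was the 1 tested member with a positive value, and it did not pass. It had 0, 0, 5 and 5 reads in line 6, 2, 1, 1 and 13 in line 17 and 26, 49, 48 and 21 in WSC. The MN libraries ran from 0 to 34.6 CPM with a median of 14.2, around the WSC range of 9.96 to 12.8. Its log2 fold change was 0.67 ± 0.35 (edgeR adjusted p = 0.114). *Dusp1* had 0, 2, 2 and 0 reads in line 6, 0, 0, 0 and 4 in line 17 and a log2 fold change of -0.27 ± 0.55 (edgeR adjusted p = 0.727). *Nr4a1*, with 1 read in line 6 and 1 in line 17, had -0.20 ± 0.91 (edgeR adjusted p = 0.885). Its pooled reads, 2 in MNs and 20 in WSC, were 1.11-fold lower in MNs, with an exact counting interval of 0.271 to 9.83. The errors of *Dusp1* and *Nr4a1* were larger than their values.

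**Figure D4:**
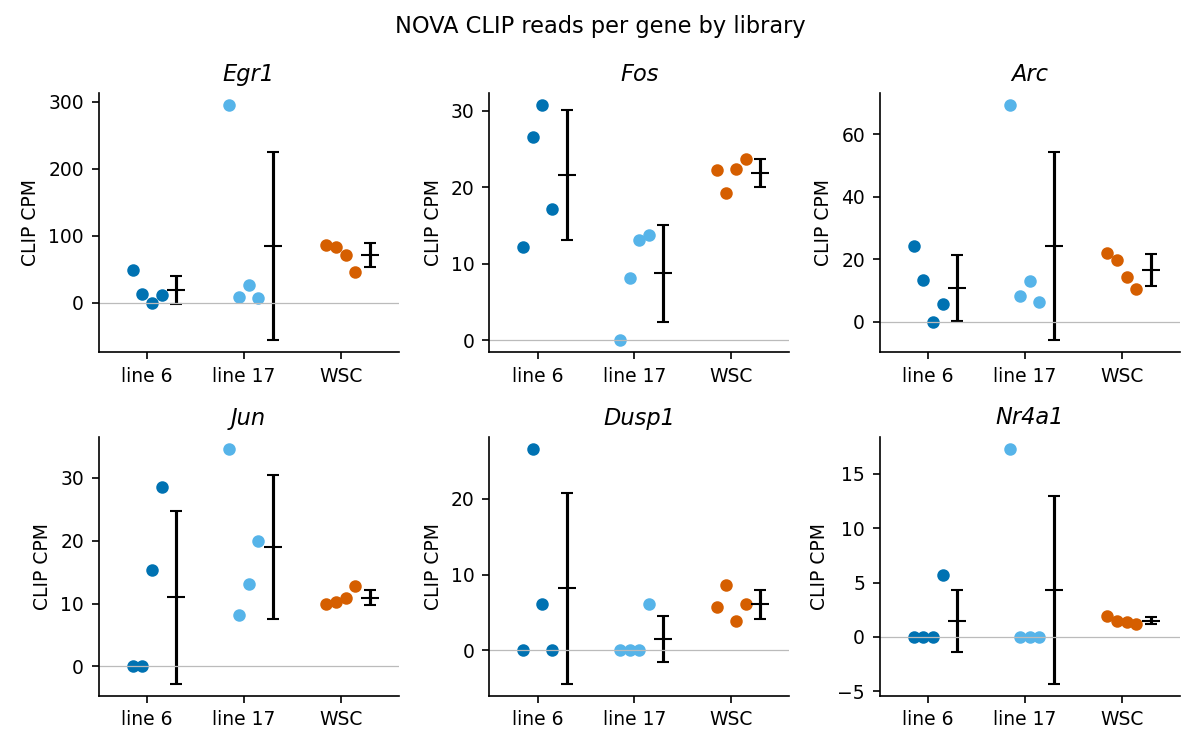
CLIP reads of 6 immediate early genes in CPM after TMM scaling, by library, for MN line 6, MN line 17 and WSC; points are libraries (4 per group) and black bars the mean with 1 SD. *Egr1* is at 46.1 to 85.4 CPM in WSC and at 0 to 48.6 CPM in 7 MN libraries, with line 17 replicate 1 at 294 CPM.

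Reads of these genes are nearly all exonic, so the comparison was repeated on exon reads. With these, the fit called 5.77% of 10311 genes higher and 11.7% lower in MNs. *Egr1* still fell, by 1.02 (SE 0.32, edgeR adjusted p = 0.00814). *Jun* rose, with a log2 fold change of 1.43 ± 0.36 (edgeR adjusted p = 0.000879). *Fos*, *Dusp1* and *Nr4a1* turned to positive values that did not pass, 0.45, 0.51 and 0.53, and *Arc* came to -0.15. The share of gene reads in exons was lower in every MN library than in every WSC library, and its part in these values was not tested. Restricted to the 8 libraries with the long 5′ barcode, all sequenced in the same run, *Egr1* had -3.29 and *Arc* -1.77 (edgeR adjusted p = 0.00318, past the threshold), and *Jun* 0.87 (edgeR adjusted p = 0.0452). With both restrictions, *Egr1* had -2.50 and *Jun* 1.66 (edgeR adjusted p = 0.000239). *Arc* then had -0.99 (edgeR adjusted p = 0.194) and did not pass. The directions of *Egr1*, *Arc* and *Jun* were the same under each of these counts, and those of *Fos*, *Dusp1* and *Nr4a1* were not.

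**Figure D5:**
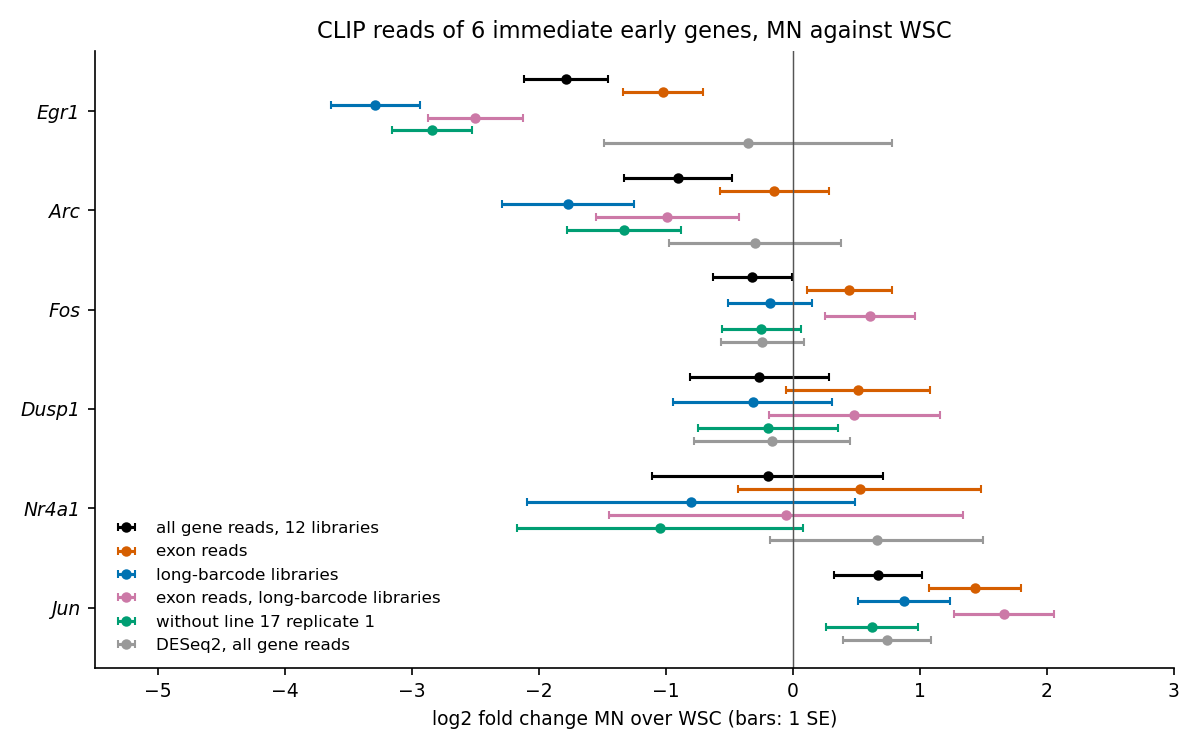
Log2 fold change of CLIP reads, MN over WSC, for 6 immediate early genes under 6 ways of counting or testing, with bars of 1 SE. *Egr1* lies left of 0 in all of them, from -3.29 to -0.35, and *Jun* right of 0 up to 1.66.

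The place of the reads was compared as well. MN reads lay at the same *Fos* site, 10 of 27 (37.0%, exact binomial interval 19.4% to 57.6%) against 57.3% (51.4% to 63.1%) in WSC. At the *Egr1* 3′ UTR site they were 16 of 32 (50%, 31.9% to 68.1%) against 29.7%, and at the coding site 0 of 32, which allows up to 9.38%, against 14.1% (12.0% to 16.4%) in WSC. The coding share of *Egr1* was 18.8% (7.21% to 36.4%) in MNs and 44.6% in WSC, where all genes had 16.6% and 24.9%. Without line 17 replicate 1, which gave 17 of the 32 reads, it was 4 of 15 (26.7%, 7.79% to 55.1%), and 0 of 15 reads at the coding site allows up to 20%, so a difference was then not detectable at this depth. That library also gave 10 of the 16 MN reads at the *Egr1* 3′ UTR site. Without it, 6 of 15 reads lay there (40%, 16.3% to 67.7%), an interval that holds the WSC share. *Jun* had 25 of its 27 MN reads in the 3′ UTR, spread over it, and 0 in the coding sequence. *Arc* had 14 of 14 MN reads in the 3′ UTR. With so few reads a library, no test of these shares was made.

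Between line 17 and line 6, 0 of 6692 genes passed in either direction (0% called; edgeR's quasi-likelihood test), 182 genes had an unadjusted p under 0.05, and the DESeq2 Wald test called 0 with 87 such genes. With the replicate number as a block, edgeR called 1 gene, which was not a member. *Fos*, *Jun* and *Egr1* had enough reads. *Egr1* was at 18.3 ± 21.0 CPM (SD, n = 4) in line 6 and 84.1 ± 140 in line 17, with a log2 fold change of 1.92 ± 0.98 (edgeR adjusted p = 0.999). *Fos* was at 21.6 ± 8.52 and 8.77 ± 6.35 CPM, with -1.04 ± 0.67, and *Jun* at 10.98 ± 13.8 and 19.0 ± 11.5 CPM, with 0.25 ± 0.71. *Fos* was lower in line 17 than in line 6 in all 4 same-numbered pairs, and with the replicate number as a block it had -0.91 ± 0.83 (edgeR adjusted p = 0.999). The libraries of the lines overlapped for each of these genes.

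The related lists were taken from the same fit. Over all genes tested it called 10.5% higher and 20.7% lower in MNs, and with exon reads 5.77% and 11.7%. The counts of these short lists stand beside those shares. Of the further immediate early genes, 21 were tested, 0 rose and 6 fell, with a median log2 fold change of -1.31, or -1.18 with *Ctgf*, which had 0 MN reads, at its bound. *Ctgf*, a secreted matrix protein, had 47 WSC reads and was at least 1.69-fold lower in MNs against a floor of 3 reads over the 8 libraries. *Plk2*, a kinase of synaptic scaling, had 1 MN and 139 WSC reads, 15.5-fold lower for its depth (exact counting interval 2.73 to 616). *Dusp5*, a MAP kinase phosphatase, had 1 and 72 reads, 8.02-fold lower (1.39 to 321). *Sik1*, a salt-inducible kinase (-1.60), *Nr4a3*, a relative of *Nr4a1* (-1.57), and *Fosl2*, an AP-1 subunit (-1.51), fell as well. With exon reads only, 1 of 21 fell, *Plk2*, and 0 rose. Of the 4 with the most RNA-seq reads none passed. *Jund* had 1 MN and 57 WSC reads (6.35-fold lower, 1.09 to 255), and the log2 fold changes were -1.05 for *Rgs2*, -0.53 for *Rhob* and 0.23 for *Sgk1*. Among 30 upstream genes 3 rose and 9 fell, with a median of -0.41. *Camk2a* (-2.05) and *Camk4* (-1.40), calcium/calmodulin-dependent kinases, were among those that fell, as was the kinase *Mapk3* (-1.34). *Srf*, the factor that drives *Fos* and *Egr1* transcription, also fell, with 2 MN and 97 WSC reads (5.40-fold lower, 1.46 to 45.3). *Rps6ka3*, *Rps6ka5* and *Mkl1* rose by 0.57, 0.66 and 0.68. With exon reads only, *Rps6ka3* rose by 0.96, whereas *Rps6ka5* and *Mkl1* had -0.64 and -0.072 and did not pass. With these reads 2 of 29 rose and 6 fell, *Camk2a* (-1.89) and *Camk4* (-1.76) among these. Of 9 AP-1 partners only *Atf2* passed, falling (-0.60), and with exon reads 2 rose, *Maf* (0.96) among them, and 0 fell.

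The next lists stand beside the same shares of all genes, 10.5% higher and 20.7% lower, or 5.77% and 11.7% with exon reads. Late activity-regulated genes are the effectors that follow the immediate early genes. Of these, 6 of 12 fell and 0 rose, with a median of -1.69. They were *Nptx1* (-2.99), a pentraxin that clusters AMPA receptors, its relative *Nptx2* with 1 MN and 98 WSC reads (10.9-fold lower, 1.91 to 436), *Nrn1* (-3.89), a neurite growth factor, *Scg2* (-1.15), a granin, and the neuropeptide genes *Penk* (-2.19) and *Sst* (-1.77). With exon reads only, 3 of 11 fell, *Nptx1*, *Nrn1* and *Penk* (-2.25, -3.11 and -1.47). Of 9 stress response genes, *Tsc22d3* (-1.64) and *Hsph1* (-0.95) fell and *Mt2*, a metallothionein, rose (1.01). With exon reads *Mt2* rose by 1.72 and *Tsc22d3* fell by 0.97. The astrocyte markers fell in 4 of 5 cases, with a median of -0.92. The microglia markers passed in 0 of 4 cases, but their log2 fold changes were also negative. They ran from -1.46 ± 0.55 (SE) for *Csf1r* to -0.87 ± 0.67 for *Cx3cr1*, so the calls do not separate these lists. With exon reads, 1 of the 5 astrocyte markers fell. Of 4 neuron markers tested 0 passed, with *Nefl*, *Snap25* and *Syt1* at -0.036, 0.38 and -0.12. With exon reads 2 neuron markers rose, *Snap25* (1.06) and *Nefl* (0.67), and *Syt1* fell (-0.76). Markers of cells outside the cord tissue proper were also higher in MN CLIP. Both tested markers of Schwann cells and sensory neurons rose, *Pmp22* (1.62) and *Calca* (2.17), as did *Hbb-b1* of red blood cells (2.31). Of 3 endothelial markers tested 1 rose, *Pecam1* (3.11), while *Tek* (1.63) and *Flt1* (0.71) did not pass. *Pecam1* had too few exon reads to enter the exon test. The muscle and neutrophil markers had too few reads to test. The part of cell type makeup in the members' values was not tested.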

How the data were processed

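The members, lists and tests were chosen with earlier results of these data known. For RNA-seq, the authors trimmed 100-nt poly(A) reads to 74 nt, mapped them to mm9 with OLego, kept unambiguous reads, and deposited read counts and RPKM per gene and counts per cassette exon; versions are not given in the sources used here. For CLIP, the authors mapped reads to mm9 with Novoalign, removed reads upstream of GTGTC-like pentamers, and deposited unique reads. The score column that the authors deposited with each CLIP read was not used. CLIP reads were counted per GENCODE vM1 protein-coding or lincRNA gene by midpoint on the gene's strand, leaving out reads in overlapping genes, and tested with edgeR 4.0.16 (TMM, quasi-likelihood, at least 20 reads and a read in 4 libraries, adjusted p at most 0.01), checked on simulated counts. SEs were derived from the F statistic. Adjusted p-values in the report come from edgeR unless DESeq2 1.42.0 is named. The reference is mm9, the build the authors give, and 0 reads ended past a chromosome, which cannot settle the build by itself. The record of line 6 replicate 2 names another build as well. Its share of reads in genes was 74.5%, where the other MN libraries had 74.7% to 79.8%.

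The MN against WSC p-values rest on a shared dispersion per gene, which joins spread between WSC mice and spread between MN pools. The MN spread also holds differences between lines and between runs, for which the main fit had no term. Deviations of line 6 and line 17 libraries with the same number had positive correlations (0.271, 0.101, 0.113 and 0.336 over 1686 genes). Libraries of the lines with different numbers ran from -0.327 to 0.207. The highest of these, line 6 replicate 3 with line 17 replicate 4, was above the same-numbered values 0.101 and 0.113. The numbers were taken to pair the lines, which these values do not settle. WSC libraries did not share a direction with same-numbered MN libraries (-0.255 to 0.272 with either line). MN replicates 1 and 2 carried short 5′ barcodes and came from other runs than replicates 3 and 4 and WSC. Named genes were the members, the 4 of each list with the most RNA-seq reads and any past the fold or threshold, and the genes most like the members between RNA-seq libraries. Penk and Sik1 were not in the RNA-seq tables by those symbols. Alternatives covered scaling, pseudocounts, filters, exon reads, libraries, the block and DESeq2. Exon reads of long-barcode libraries, and GENCODE lengths, were added after seeing the data.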

Additional observations from a re-analysis of the deposited data

Results flagged for a closer look

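A single library stood apart from the other 3 of its group by Dixon's criterion in 8 of the 23 gene and group combinations with any spread. Chance flags about 1 in 20 groups of measured values, but in 6 of the 8 the other 3 libraries had 0 reads, where any read at all is flagged and that rate does not hold. Line 17 replicate 1 was the shallowest CLIP library, with 51417 reads in genes. It stood apart for *Egr1* at 294 CPM, for *Arc* at 69.3 CPM (4 reads) and for *Nr4a1* at 17.3 CPM (1 read). Its 17 *Egr1* reads had 15 different pairs of start and end. The other *Egr1* and *Arc* values of line 17 were 7.65 to 26.2 and 6.12 to 13.1 CPM. *Dusp1* stood apart in line 17 replicate 4, the deepest MN library with 695654 reads in genes, at 6.12 CPM, with 4 reads where the other libraries of the line had 0. *Fosb* stood apart in line 6 replicate 1 at 24.3 CPM with 2 reads, and *Nr4a1* in line 6 replicate 4 at 5.71 CPM with 1 read. In WSC, *Egr2* stood apart in replicate 4 at 0.607 CPM and *Ier2* in replicate 2 at 0.210 CPM, each from 1 read.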

How the results depend on the processing

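The count of members past 2-fold between the RNA-seq libraries stayed at 0 under TMM and DESeq2 scaling, pseudocounts of 1 and 0.01, a fold of 1.5, no filter and a minimum of 200 reads, and their median log2 ratio kept its sign under each scaling and pseudocount. In MN against WSC CLIP, the counts of genes higher and lower moved by more than 1.5 times with exon reads only (595 and 1210), with exon reads of long-barcode libraries (675 and 1053) and at an FDR of 0.1 (2060 and 3806), and the count lower moved with filterByExpr (1421) and with line 17 only (1414). Leaving out each replicate gave 925 to 1394 higher and 1948 to 2473 lower, and for line 17 against line 6 gave 0 to 0 in either direction. With the replicate block, which the numbers do not warrant for WSC, 900 were higher and 2122 lower. Line 17 against line 6 gave 1 gene higher with the replicate block, and 1 higher and 1 lower in long-barcode libraries. No member's call in either comparison changed with the replicate block.

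*Egr1* passed in MN against WSC in each alternative run other than DESeq2. Values changed sign, without passing, for *Fos* with exon reads (0.45), exon reads of long-barcode libraries (0.61) and line 6 only (0.20), for *Dusp1* in the same (0.51, 0.48 and 0.021) and without WSC replicate 2 (0.095), for *Nr4a1* with the DESeq2 Wald test (0.66), exon reads (0.53), line 6 only (0.063) and without line 17 replicate 4 (0.55) or line 6 replicate 3 (0.13), and for *Jun* between lines in long-barcode libraries (-0.092). Leaving out each replicate gave -0.60 to 0.095 for *Dusp1* and, in the 9 of 12 fits it entered, -1.05 to 0.55 for *Nr4a1*, which had under 20 reads without WSC replicate 1, 2 or 3. *Arc* passed at an FDR of 0.1 and in long-barcode libraries. The cause was not tested, other than that fewer genes or libraries entered under several of these. *Nr4a1* had no DESeq2 adjusted p, and *Egr1* alone of the members passed filterByExpr. The MN libraries held 51417 to 695654 reads in genes and at most 17 reads of any member, which limits the precision.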
